A study of Mus musculus with 4 samples.

Results

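DNA replication licensing genes were read in 4 cell populations of the E11 mouse aorta-gonad-mesonephros (AGM) region, with 1 library per population. The members were the rows of the deposited expression table that carried the name of a licensing gene, and 9 of the 10 listed genes were found among 51205 genes: Mcm2, Mcm3, Mcm5, Mcm6, Mcm7, Mcm10, Cdc6, Cdt1 and Gmnn. Mcm4 was not analysed here. The genes were chosen by name and not by their values, although earlier results of these data were known.

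All 4 populations came from WT-labelled embryos with a GFP reporter in the Runx1 locus, which encodes a transcription factor needed for blood formation. They were isolated by FACS as cells with the endothelial surface protein CD31 and without the pericyte proteins NG2 and PDGFRB. The gate ckit-CD45-Runx1(GFP)- gave endothelial cells (ECs). The gate ckit-CD45-Runx1(GFP)+ gave the cells labelled by the submitters as hemogenic endothelial cells (HECs), the type from which blood cells bud. The cells labelled by the submitters as intra-aortic hematopoietic clusters (IAHCs) were ckit+ and were not gated on CD45. They were split into Runx1(GFP)+ and Runx1(GFP)- cells. Per the study's supplement, embryos heterozygous and homozygous for the reporter were pooled, so the copies of the reporter per library are uncertain. A gate on a reporter reads the activity of the Runx1 locus and does not by itself define a cell type. By the study's own cell counts, Runx1- IAHCs were by far the fewest cells sorted and ECs by far the most, so the library with the highest licensing levels rests on very few cells, a limit that the counting intervals do not cover.

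Replication origins are licensed when the MCM2-7 ring, a helicase of 6 different subunits, is loaded onto DNA before S phase. The origin recognition complex marks the site, Cdc6 and Cdt1 bring the ring, and geminin, the product of Gmnn, binds Cdt1 and blocks further loading until the next cycle. Mcm10 acts later, when loaded rings are turned into moving helicases. These genes are known to be transcribed under E2F factors in cycling cells, and many of the proteins are also controlled by destruction, which RNA levels do not show.

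The libraries held 12420598 to 15917924 recovered reads, counted over the 96.4% of genes whose reads came out whole. Runx1 was at 13.0 TPM and 10.1 TPM in the HEC and Runx1+ IAHC libraries, and at 0.311 TPM and 0.128 TPM in the EC and Runx1- IAHC libraries. Kit was at 34.5 and 62.1 TPM in the Runx1+ and Runx1- IAHCs, 9.69 TPM in ECs and 1.08 TPM in HECs. The 8 endothelial markers summed to 1924 TPM in ECs and 2039 TPM in Runx1- IAHCs, and to 112 TPM in Runx1+ IAHCs and 274 TPM in HECs. Of the sum in Runx1- IAHCs, 1196 TPM was Cldn5, and Cdh5 was at 31.1 TPM there against 401 TPM in ECs. Each library also held markers of other cells. The 8 primordial germ cell markers summed to 6192 TPM in Runx1- IAHCs, 647 TPM in ECs, 3.77 TPM in Runx1+ IAHCs and 14.3 TPM in HECs. The 8 megakaryocyte and platelet markers summed to 52332 TPM in HECs and to 59.9 to 412 TPM in the other libraries, and the 8 erythroid markers to 47606 TPM in ECs, 24485 TPM in HECs and 457 to 474 TPM in the IAHC libraries. The HEC library thus had less endothelial marker RNA than the EC library and the most platelet marker RNA. Its name is used here as a label, and so is that of the Runx1- IAHC library, which had the most germ cell marker RNA. The 6 pan-hematopoietic markers summed to 2638 TPM in HECs, 1854 TPM in Runx1+ IAHCs, 59.3 TPM in ECs and 33.4 TPM in Runx1- IAHCs. Of these, Ptprc, which encodes CD45, had no read in Runx1- IAHCs. It was also low in ECs (0.149 TPM) and HECs (0.246 TPM), against 11.4 TPM in Runx1+ IAHCs. Coro1a went the other way, at 12.9 TPM in Runx1- IAHCs and 1.58 TPM in ECs. Fewer cells of a type and less RNA per cell cannot be told apart in these bulk samples, and the part that other cells took in any difference below was not tested.

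The upstream sequence of the genes is shown because E2F-type sites are the feature for which this group of promoters is known. Of the 9 genes, 8 have an entry among the RefSeq promoter windows of build GRCm38.p6, each of which runs from 250 bases before to 50 bases after a transcript start; Mcm7 has a pair of windows. The words TTTCCCGC, TTTCGCGC, TTTGCCGC and TTTGGCGC were searched on both strands. A match was found for 6 of the 8 genes (Mcm3, Mcm5, Mcm6, Mcm7, Cdt1 and Cdc6), in 6 of their 9 windows. Of all 32851 mouse windows, 2.26% had a match. Mcm2 and Mcm10 had none in this window. The box CCAAT, on either strand, was found for 6 of the 8 genes (all but Cdt1 and Cdc6) against 37.4% of all windows. Here the members were counted by gene and the background by window. A match to letters is a description of the sequence and not a binding site. In the 30-base stretches below, read 5′ to 3′ on the strand of the gene, the capitals mark the E2F-type word as it reads on that strand. The Mcm3 stretch is chr1:20820263-20820292, minus strand, with the word 39 bases after the start. The Mcm6 stretch is chr1:128359734-128359763, minus strand, 47 bases before the start. The Mcm7 stretch is chr5:138171849-138171878, minus strand, 17 bases after the start. The Mcm5 stretch is chr8:75109345-75109374, plus strand, 153 bases before the start. The Cdt1 stretch is chr8:122568035-122568064, plus strand, 33 bases after the start. The Cdc6 stretch is chr11:98908002-98908031, plus strand, 138 bases before the start.
Mcm3: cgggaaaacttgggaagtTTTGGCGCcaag
Mcm6: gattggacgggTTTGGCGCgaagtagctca
Mcm7: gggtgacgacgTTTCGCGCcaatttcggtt
Mcm5: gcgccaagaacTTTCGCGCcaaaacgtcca
Cdt1: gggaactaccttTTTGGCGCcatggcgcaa
Cdc6: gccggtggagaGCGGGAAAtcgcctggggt
Where a window held several matches, 1 was chosen for print, and other words of the 4 occur in the windows of Mcm3, Mcm5, Mcm6 and Mcm7. The Cdc6 word is TTTCCCGC read from the other strand. Matches of opposite orientation overlap each other at the printed Mcm5 word, and also at an Mcm6 position that is not printed.

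The ring subunits were measured at moderate to high levels in every library, and all 5 were highest in Runx1- IAHCs and lowest in ECs. Levels are in TPM (reads scaled by exonic length and library total), and ranges in parentheses are 95% intervals of counting error. Mcm6 (chromosome 1, 128331590 to 128359664) was at 49.7 TPM (47.5 to 52.0) in ECs, 83.5 TPM (80.9 to 86.0) in HECs, 152 TPM (149 to 156) in Runx1+ IAHCs and 369 TPM (364 to 375) in Runx1- IAHCs. These values rest on 1955, 4067, 7223 and 15986 reads. Each neighbour in this order stood apart from the next by more than counting error, and the highest library was 7.43-fold (7.09 to 7.79) above the lowest, the widest span among the ring subunits.

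Mcm2, whose protein carries a histone-binding tail besides its place in the ring, was at 26.9 TPM (25.6 to 28.3) in ECs, 39.8 TPM (38.3 to 41.2) in HECs, 44.3 TPM (42.8 to 45.9) in Runx1+ IAHCs and 169 TPM (166 to 173) in Runx1- IAHCs. The EC, HEC and Runx1+ IAHC libraries lay nearer to each other than to the Runx1- IAHC library, which was 3.83-fold (3.68 to 3.98) above the next. Mcm3 was at 70.5 TPM in ECs, 79.5 TPM in HECs, 124 TPM in Runx1+ IAHCs and 253 TPM in Runx1- IAHCs, the narrowest of the 5 subunits with a span of 3.59-fold (3.43 to 3.77). Mcm5 was at 64.9 TPM in ECs, 75.4 TPM in HECs, 126 TPM in Runx1+ IAHCs and 331 TPM in Runx1- IAHCs. Its pattern was the nearest of the 5 to their mean pattern.

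Mcm7 was at 33.6 TPM (31.8 to 35.5) in ECs, 35.6 TPM (33.8 to 37.3) in HECs, 78.7 TPM (76.1 to 81.3) in Runx1+ IAHCs and 168 TPM (164 to 172) in Runx1- IAHCs. In TPM the EC and HEC libraries did not differ beyond counting error for this gene (HEC over EC 1.06, 0.982 to 1.14), and both IAHC libraries were above them. The interval of HEC over EC was 1.08 to 1.26 under scaling by median ratios. It was 0.875 to 1.02 without mitochondrial, ribosomal protein and hemoglobin genes. The locus (chromosome 5, 138164583 to 138172422, minus strand) is crowded. Exons of Mcm7 overlap Ap4m1 by 321 bases and Cops6 by 64 bases on the opposite strand, and the microRNA genes Mir25 and Mir93 lie within its exons on the same strand. The libraries carry no strand information, and a read that touches several genes is not counted in union mode, so reads in these overlaps may be missing from the Mcm7 level. Ap4m1, an adaptor complex subunit whose start lies 420 bases from that of Mcm7, was at 3.23 TPM in ECs, 0.643 TPM in HECs, 2.25 TPM in Runx1+ IAHCs and 14.4 TPM in Runx1- IAHCs, all far under the level of Mcm7.

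The loading factors had another order at the low end. Cdc6, the ATPase that joins the origin recognition complex and recruits the ring, was at 12.9 TPM (11.8 to 13.9) in ECs, 8.97 TPM (8.18 to 9.78) in HECs, 21.7 TPM (20.4 to 22.9) in Runx1+ IAHCs and 51.8 TPM (49.8 to 53.8) in Runx1- IAHCs. Cdt1, which escorts the ring to the origin, was at 33.0 TPM (30.8 to 35.2) in ECs, 23.7 TPM (22.1 to 25.4) in HECs, 62.9 TPM (60.2 to 65.7) in Runx1+ IAHCs and 75.9 TPM (72.7 to 79.1) in Runx1- IAHCs. Both were lowest in HECs rather than in ECs, Cdc6 by 1.43-fold (1.27 to 1.62) and Cdt1 by 1.39-fold (1.26 to 1.53). Cdt1 also had less of a step between the IAHC libraries, 1.21-fold (1.13 to 1.28), than Cdc6, 2.39-fold (2.23 to 2.57). The Cdt1 step depends on the scaling. Its interval of Runx1+ over Runx1- was 0.998 to 1.13 under scaling by median ratios, and 0.834 to 0.942 without mitochondrial, ribosomal protein and hemoglobin genes.

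Gmnn, the inhibitor, did not follow the ring at the high end. It was at 103 TPM (97.3 to 109) in ECs, 121 TPM (116 to 127) in HECs, 276 TPM (268 to 285) in Runx1+ IAHCs and 271 TPM (262 to 279.7) in Runx1- IAHCs. In TPM the IAHC libraries did not differ beyond counting error (Runx1+ over Runx1- 1.02, 0.975 to 1.07), and both were well above the ckit- libraries. This depends on the scaling. Under scaling by median ratios the interval of Runx1+ over Runx1- was 1.25 to 1.36. Without mitochondrial, ribosomal protein and hemoglobin genes it was 1.04 to 1.14. Mcm10, the activation factor, was the least abundant member at 3.99 TPM (3.51 to 4.50) in ECs, 6.38 TPM (5.83 to 6.95) in HECs, 12.6 TPM (11.8 to 13.4) in Runx1+ IAHCs and 33.4 TPM (32.0 to 34.7) in Runx1- IAHCs. It had the ring's order of libraries and the widest span of all members, 8.39-fold (7.37 to 9.57), on 258 reads in ECs and 2381 reads in Runx1- IAHCs.

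**Figure D1:**
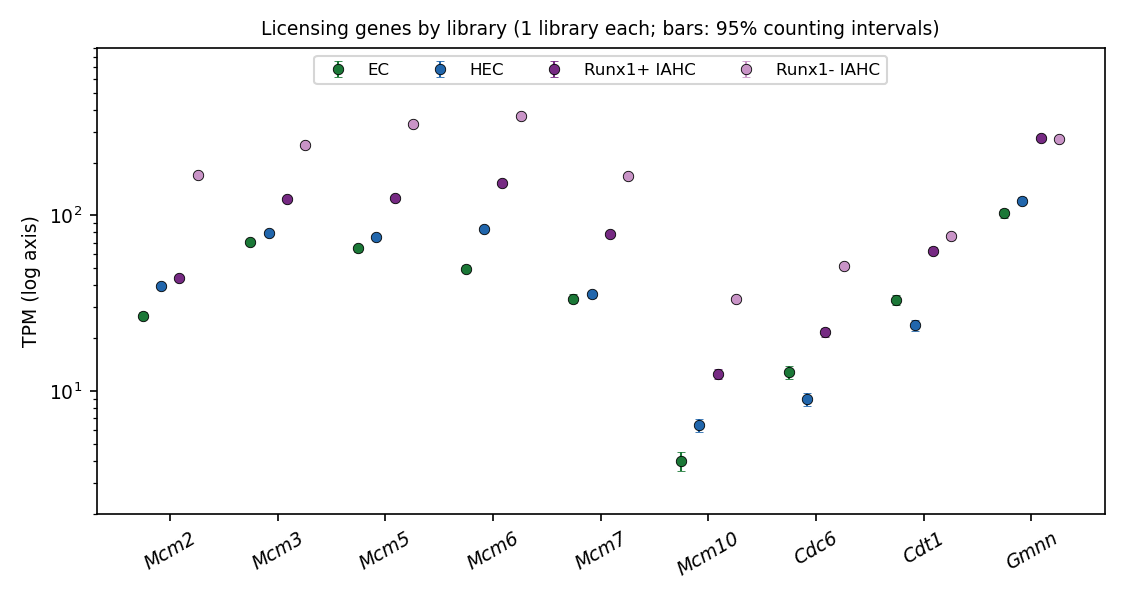
Levels of the 9 licensing genes in TPM on a log axis, 1 point per library, with bars for 95% counting intervals (often smaller than the points). Runx1- IAHCs were highest for 8 of the 9 genes, Gmnn was at 276 TPM and 271 TPM in the IAHC libraries, and Cdc6 and Cdt1 were lowest in HECs.

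Because the ring holds its subunits in equal number, their relative RNA levels were set side by side within each library, where scaling between libraries plays no part. The 5 measured subunits summed to 246 TPM in ECs, 314 TPM in HECs, 526 TPM in Runx1+ IAHCs and 1291 TPM in Runx1- IAHCs. The subunits were not at equal levels anywhere. The highest over the lowest was 2.62 (2.45 to 2.79, Mcm3 over Mcm2) in ECs, 2.35 (2.22 to 2.49, Mcm6 over Mcm7) in HECs, 3.43 (3.29 to 3.58, Mcm6 over Mcm2) in the Runx1+ IAHCs and 2.20 (2.14 to 2.26, Mcm6 over Mcm7) in the Runx1- IAHCs. Levels of different genes rest on the summed length of all annotated exons, so a gene with long alternative exons reads low. That length is the same in every library, but the use of alternative exons in each was not examined.

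The make-up of the sum shifted between libraries. Mcm3 was 28.7% of the summed TPM in ECs and 25.3% in HECs, and 23.6% and 19.6% in the Runx1+ and Runx1- IAHC libraries. Mcm6 was 20.2% in ECs and 26.6% to 28.9% in the other libraries. Mcm6 over Mcm3 was 0.705 (0.663 to 0.749) in ECs and 1.46 (1.42 to 1.5) in Runx1- IAHCs, so the order of this pair was opposite in these libraries. Mcm2 was 8.43% of the sum in Runx1+ IAHCs against 11% to 13.1% elsewhere, and Mcm6 over Mcm2 was 3.43 (3.29 to 3.58) there against 1.85 to 2.18 in the other libraries. Mcm5 had the steadiest share, 24.0% to 26.4%.

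**Figure D2:**
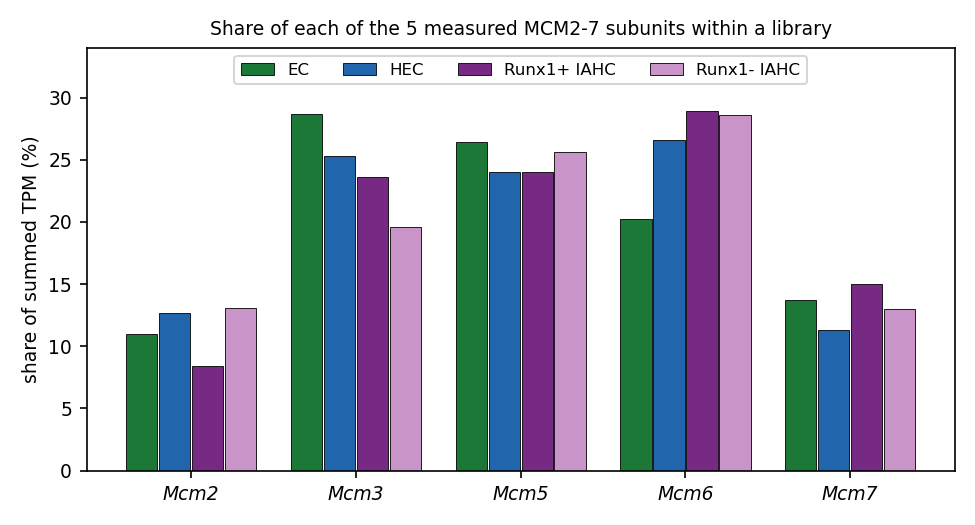
Share of each of the 5 measured MCM2-7 subunits in their summed TPM (percent, axis from 0), with 1 bar per library. The Mcm3 share was 28.7% in ECs and 19.6% in Runx1- IAHCs, Mcm6 was at 20.2% in ECs and at 26.6% to 28.9% outside them, and Mcm2 was at 8.43% in Runx1+ IAHCs.

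Ratios between roles also differed within libraries. Gmnn over Cdt1, the inhibitor over its target, was 3.12 (2.86 to 3.40) in ECs, 5.12 (4.71 to 5.57) in HECs, 4.39 (4.16 to 4.63) in the Runx1+ IAHCs and 3.57 (3.39 to 3.77) in the Runx1- IAHCs. Gmnn RNA exceeded Cdt1 RNA in every library, most in HECs, and both Runx1(GFP)+ libraries were above both Runx1(GFP)- libraries. Mcm6 over Gmnn was 0.483 (0.450 to 0.519) in ECs, 0.687 (0.650 to 0.726) in HECs, 0.551 (0.530 to 0.572) in the Runx1+ IAHCs and 1.36 (1.32 to 1.41) in the Runx1- IAHCs, the only library of the 4 in which Mcm6 RNA exceeded Gmnn RNA. Cdt1 over Cdc6 was 2.57 (2.31 to 2.86) in ECs, 2.65 (2.36 to 2.97) in HECs and 2.91 (2.70 to 3.13) in Runx1+ IAHCs, with intervals that overlap between neighbours, and 1.47 (1.38 to 1.55) in Runx1- IAHCs. Mcm6 over Mcm10 kept within 11.1 to 13.1 in the 4 libraries.

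Differences between libraries are given as differences of log2(TPM + 1), for genes whose higher library reached 10 TPM, with a size of 1 (2-fold) as the call. With 1 library per population the spread between replicates is unknown, so these are differences between libraries and carry no p-value. The 4 comparisons share libraries, and their values are not independent of each other. TPM shares a fixed total between genes, so the median of all genes compared is given beside each value.

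In HECs against ECs, which both lack ckit and differ in the Runx1 reporter, the licensing genes differed little. None of the 8 members compared was called (Mcm10 was under the minimum), whereas over the 7793 genes compared 22.7% were called higher and 18.6% lower. The members' median was 0.19 against 0.12 for all genes. The ring subunits Mcm6 (0.74) and Mcm2 (0.55) were the farthest above, Gmnn was at 0.24, Mcm5 at 0.21, Mcm3 at 0.17 and Mcm7 at 0.08, and the loaders Cdc6 (-0.48) and Cdt1 (-0.46) were below. By reads, Mcm6 was 1.68-fold (1.59 to 1.77) higher in HECs and Cdt1 was at 0.719 (0.652 to 0.793) of its EC level. Leaving hemoglobin, mitochondrial and ribosomal protein genes out of the scaling put Mcm7 at -0.08 and moved the share of higher genes among all calls from 54.9% to 43.4%, with a median of all genes of -0.11. Platelet markers (52332 against 412 TPM) and erythroid markers (24485 against 47606 TPM) moved with this contrast, and the granulocyte and mast cell markers summed to 779.7 TPM in HECs, with 1.66 TPM in ECs. All 8 endothelial markers were called lower in HECs (median -2.89), and all 5 pan-hematopoietic markers compared were called higher (median 4.99). Their part in the result was not tested.

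In Runx1+ IAHCs against Runx1- IAHCs, the same reporter contrast among ckit+ cells, 7 of 9 members were called lower and 0 higher, where 37.9% of the 8726 genes compared were called lower and 15.8% higher. The members' median was -1.22 and that of all genes -0.53. Mcm2 (-1.91) was the farthest, followed by Mcm5 (-1.38), Mcm10 (-1.34), Mcm6 (-1.28), Cdc6 (-1.22), Mcm7 (-1.09) and Mcm3 (-1.02). The regulator pair of Cdt1 (-0.27) and Gmnn (0.03) was not called, and both lay above the median of all genes. Without mitochondrial, ribosomal protein and hemoglobin genes in the scaling, Mcm7 (-0.99) and Mcm3 (-0.93) fell short of the call. Under scaling by median ratios, which put the median of all genes at -0.11 and the share of higher genes among all calls at 44.9% in place of 29.4%, the calls were Mcm2 (-1.56) and Mcm5 (-1.03), and Cdt1 turned to 0.08. Germ cell markers summed to 3.77 TPM in Runx1+ IAHCs and 6192 TPM in Runx1- IAHCs, with all 8 of them called lower. Of these, Dppa3, Dppa5a and Utf1 had no read in Runx1+ IAHCs, and the others were at up to 1.39 TPM there. All 6 pan-hematopoietic markers were called higher and all 8 endothelial markers lower, and the granulocyte and mast cell markers summed to 1120.4 TPM in Runx1+ IAHCs and 3.93 TPM in Runx1- IAHCs. Their part in the members' differences was not tested.

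In Runx1+ IAHCs against HECs, which share the reporter and differ in the ckit gate and in the CD45 gate, all 9 members were above 0. Of these, 4 were called higher and 0 lower, where 13.3% of the 7279 genes compared were called higher and 13.9% lower. The called members were Cdt1 (1.37), Cdc6 (1.18), Gmnn (1.18) and Mcm7 (1.12), that is, both loaders, the inhibitor and 1 ring subunit. Mcm10 (0.88), Mcm6 (0.86), Mcm5 (0.74), Mcm3 (0.64) and Mcm2 (0.15) were not called, and Mcm2 lay at the median of all genes (0.19). The members' median was 0.88. A pseudocount of 5 TPM ended the call of Cdc6 (0.93). Scaling by median ratios left Cdt1 (1.18) and Cdc6 (1.01) as calls, turned Mcm2 to -0.04 and moved the share of higher genes among all calls from 49.0% to 33.5%, with a median of all genes of -0.04. Platelet markers (152 against 52332 TPM) and erythroid markers (474 against 24485 TPM) moved with this contrast. Of 6 erythroid markers compared, 5 were called lower and 1 higher (Klf1, 35.4 against 3.25 TPM). Of 7 endothelial markers compared, 4 were called lower and 0 higher. Of 6 pan-hematopoietic markers, 4 were called higher and 1 lower. The part of these markers was not tested.

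In Runx1- IAHCs against ECs, both without reporter signal, all 9 members were called higher, where 42.5% of the 8936 genes compared were called higher and 16.6% lower. The members' median was 2.29 against 0.71 for all genes. The ring and its activator led with Mcm6 (2.87), Mcm10 (2.78), Mcm2 (2.61), Mcm5 (2.33) and Mcm7 (2.29), followed by Cdc6 (1.93), Mcm3 (1.83), Gmnn (1.39) and Cdt1 (1.18). By reads, Mcm6 was 7.43-fold (7.09 to 7.79) and Cdt1 2.30-fold (2.13 to 2.49) higher. Scaling by median ratios left 7 calls, with Gmnn at 0.98 and Cdt1 at 0.77 under the threshold (Cdt1 was at 0.97 without mitochondrial, ribosomal protein and hemoglobin genes), and put the share of higher genes among all calls at 56.3% in place of 71.9% and the median of all genes at 0.22. Germ cell markers (6192 against 647 TPM, 7 of 8 called higher) and erythroid markers (457 against 47606 TPM) moved with this contrast, and their part was not tested. Klf1, an erythroid transcription factor, went against the globins in the erythroid list (98.5 against 4.73 TPM), where 1 of 7 compared was called higher and 5 lower. The endothelial markers went both ways, with 1 called higher (Cldn5, 1196 against 355 TPM) and 3 lower (Cdh5, Emcn and Kdr).

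**Figure D3:**
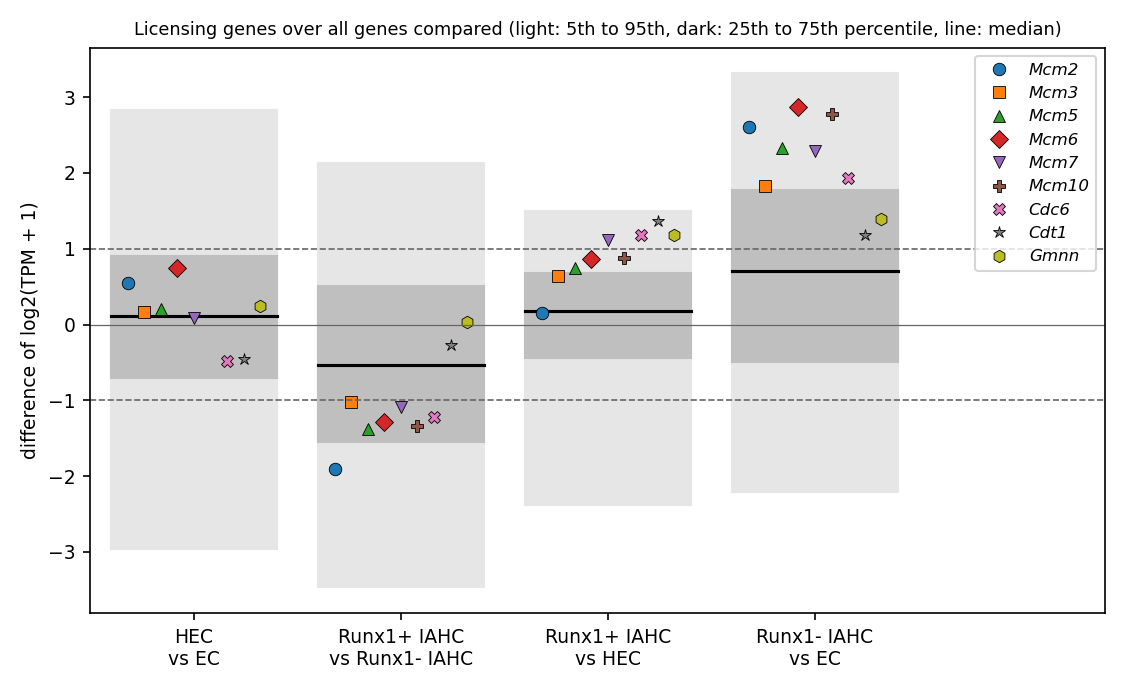
Differences of log2(TPM + 1) of the licensing genes in the 4 comparisons (points), over the spread of all genes compared (light band 5th to 95th percentile, dark band 25th to 75th percentile, line median). Dashed lines mark the 2-fold size; Mcm10 has no point in HEC vs EC. The members lay between the dashed lines in HEC vs EC and all above the upper one in Runx1- IAHC vs EC, with Cdt1 and Gmnn lowest among them there and highest in Runx1+ IAHC vs Runx1- IAHC.

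The rest of the replication machinery was read from lists of named genes. Over all genes compared, 22.7% were called higher and 18.6% lower in HECs against ECs, and 15.8% and 37.9% in Runx1+ against Runx1- IAHCs. The shares were 13.3% and 13.9% in Runx1+ IAHCs against HECs, and 42.5% and 16.6% in Runx1- IAHCs against ECs. The medians of all genes were 0.12, -0.53, 0.19 and 0.71 in this order of comparisons. The origin recognition complex, which marks origins for loading, was compared for 5 or 6 of its 6 subunits. It had 0 calls in HECs against ECs, 1 lower in Runx1+ against Runx1- IAHCs, 1 higher (Orc1, 1.14) in Runx1+ IAHCs against HECs and 3 higher in Runx1- IAHCs against ECs, with medians of 0.32, -0.58, 0.25 and 1.03. Orc6, the most abundant subunit, was at 80.4 TPM in ECs, 101 TPM in HECs, 106 TPM in Runx1+ IAHCs and 154 TPM in Runx1- IAHCs. The differences of Orc3 and Orc2 between Runx1- IAHCs and ECs were 1.22 and 0.53, so the complex had a narrower range than the ring it helps to load.

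Genes of origin firing and of assembly of the active helicase (Cdc45, MCM and GINS) had medians of -0.30, -0.63, 0.78 and 1.09 in the same order of comparisons. Of 8, 9, 8 and 9 genes compared, 1 was lower, 4 lower, 1 higher and 5 higher. Over all genes compared, the shares were 18.6% lower, 37.9% lower, 13.3% higher and 42.5% higher. Gins4, a subunit of the GINS complex, was at 64.0 TPM in ECs, 96.4 TPM in HECs, 111 TPM in Runx1+ IAHCs and 261 TPM in Runx1- IAHCs, which is the order of the ring subunits. Gins1 and Cdc45 differed by 0.80 and 1.09 between Runx1- IAHCs and ECs. Listed genes with no row under their name were not analysed here.

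Of the 26 genes of the replication fork, 22 to 26 were compared. In HECs against ECs 3 were higher and 0 lower (median 0.12), in Runx1+ against Runx1- IAHCs 1 higher and 10 lower (median -0.51), in Runx1+ IAHCs against HECs 5 higher and 1 lower (median 0.76), and in Runx1- IAHCs against ECs 16 higher and 0 lower (median 1.31). The 10 lower of 26 between the IAHC libraries lay near the 37.9% of all genes, and the median near the -0.53 of all genes. Pcna, the sliding clamp, was at 304 TPM in Runx1+ IAHCs and 301 TPM in Runx1- IAHCs, and Tipin, of the fork protection complex, at 274 TPM and 270 TPM. In TPM these genes were level between the IAHC libraries as Gmnn was, whereas the ring subunits were not. Rpa3, of the factor that coats single-stranded DNA, was within 169 to 229 TPM in all 4 libraries. Against the direction of the list, Clspn, a checkpoint mediator at the fork, was at 13.4 TPM in Runx1+ IAHCs and 5.61 TPM in Runx1- IAHCs (1.12), and Pold4, a small subunit of DNA polymerase delta, at 28.5 TPM in Runx1+ IAHCs and 60.0 TPM in HECs (-1.05).

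Genes of Cdt1 turnover, the ubiquitin ligase parts that mark the protein for destruction, had medians of -0.72, -0.72, 0.37 and 0.51, with 3 lower, 2 lower, 1 higher and 2 higher of 7 or 8 compared. All genes compared had 18.6% lower, 37.9% lower, 13.3% higher and 42.5% higher, with medians of 0.12, -0.53, 0.19 and 0.71. Skp1a and Ddb1, adaptors of the CUL1 and CUL4 ligases, were lowest in HECs (225 and 99.6 TPM) and highest in Runx1- IAHCs (662 and 282 TPM), as Cdt1 itself was. Cks1b, a partner of the SKP2 ligase, had another order, at 525 TPM in ECs, 525 TPM in HECs, 679 TPM in Runx1+ IAHCs and 452 TPM in Runx1- IAHCs. The relatives and partners of the MCM proteins had medians of -0.82, -0.24, 0.68 and 0.71 over 3 or 4 genes compared. The last of these equals the median of all genes. Mcmbp, which binds MCM proteins, was at 36.9 TPM in ECs, 20.5 TPM in HECs, 40.8 TPM in Runx1+ IAHCs and 48.9 TPM in Runx1- IAHCs, and Hells, a chromatin remodeller, at 24.1, 11.9, 45.4 and 53.0 TPM in the same order. Both were lowest in HECs. Kat7, a histone acetyltransferase linked to licensing, differed by 1.00 between Runx1- IAHCs and ECs, where the median of all genes was 0.71.

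The E2F factors and pocket proteins, which switch on and hold back S phase genes, were mixed in their own RNA. Their medians were -0.24, 0.11, 0.54 and -0.25, and in Runx1- IAHCs against ECs, where 9 of 9 members were higher, 0 of 6 were higher and 3 lower. Over all genes compared there, 42.5% were higher and 16.6% lower. Tfdp1, the DNA-binding partner of E2F factors, was at 30.9 TPM in ECs, 25.4 TPM in HECs, 47.1 TPM in Runx1+ IAHCs and 50.6 TPM in Runx1- IAHCs. E2f1, an activating E2F named after its values were seen, was at 5.79 TPM in ECs, 2.34 TPM in HECs, 7.72 TPM in Runx1+ IAHCs and 10.9 TPM in Runx1- IAHCs. Both had the order of libraries of Cdc6 and Cdt1. E2f4 was within 22.7 to 42.0 TPM, and E2f5 was at 51.9 TPM in ECs and 12.3 to 24.8 TPM elsewhere. Rb1, the retinoblastoma pocket protein, was at 6.25 TPM in ECs, 37.9 TPM in HECs, 4.77 TPM in Runx1+ IAHCs and without a read in Runx1- IAHCs. Against a floor of 3 reads, Rb1 was at least 116-fold higher in ECs (316 reads) than in Runx1- IAHCs, a bound for counting error only, in the library made from the fewest cells. Against the direction of the list, Rb1 was higher in HECs than in ECs (2.42), and Rb1 (-2.75) and Tfdp2 (-1.13) were lower in Runx1+ IAHCs than in HECs.

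The 16 general proliferation markers, all compared in each contrast, had medians of -0.02, -0.50, 0.54 and 0.92, and in the last 3 comparisons these lay nearer to the medians of all genes than those of the licensing genes did. In Runx1- IAHCs against ECs 8 of the 16 were higher, near the 42.5% of all genes. Rrm2, a ribonucleotide reductase subunit of S phase, was at 112 TPM in ECs, 90.5 TPM in HECs, 169 TPM in Runx1+ IAHCs and 513 TPM in Runx1- IAHCs. The mitotic genes went different ways. Birc5 was at 101 TPM in ECs and 164 to 181 TPM in the other libraries, and Cdk1 was at 101 TPM in ECs, 73.0 TPM in HECs, 137 TPM in Runx1+ IAHCs and 74.2 TPM in Runx1- IAHCs, with Runx1+ IAHCs highest. Ccnb1, a mitotic cyclin named after its values were seen, was at 23.9 TPM in ECs, 40.0 TPM in HECs, 34.5 TPM in Runx1+ IAHCs and 169 TPM in Runx1- IAHCs. The members' median stood 1.58 above that of all genes in Runx1- IAHCs against ECs, and those of the fork, firing, recognition and proliferation lists 0.60, 0.38, 0.32 and 0.21 above it. In Runx1+ against Runx1- IAHCs the members' median stood at -0.69 from that of all genes and those of the same 4 lists at 0.02, -0.10, -0.05 and 0.03. In Runx1+ IAHCs against HECs the members stood at 0.69, near the fork (0.57) and firing (0.59) lists, with recognition at 0.06 and proliferation at 0.35. In HECs against ECs the members stood at 0.07 and the same 4 lists at 0.00, -0.42, 0.20 and -0.14. The E2F and pocket protein list stood at 0.64 in Runx1+ against Runx1- IAHCs and at -0.96 in Runx1- IAHCs against ECs.

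**Figure D4:**
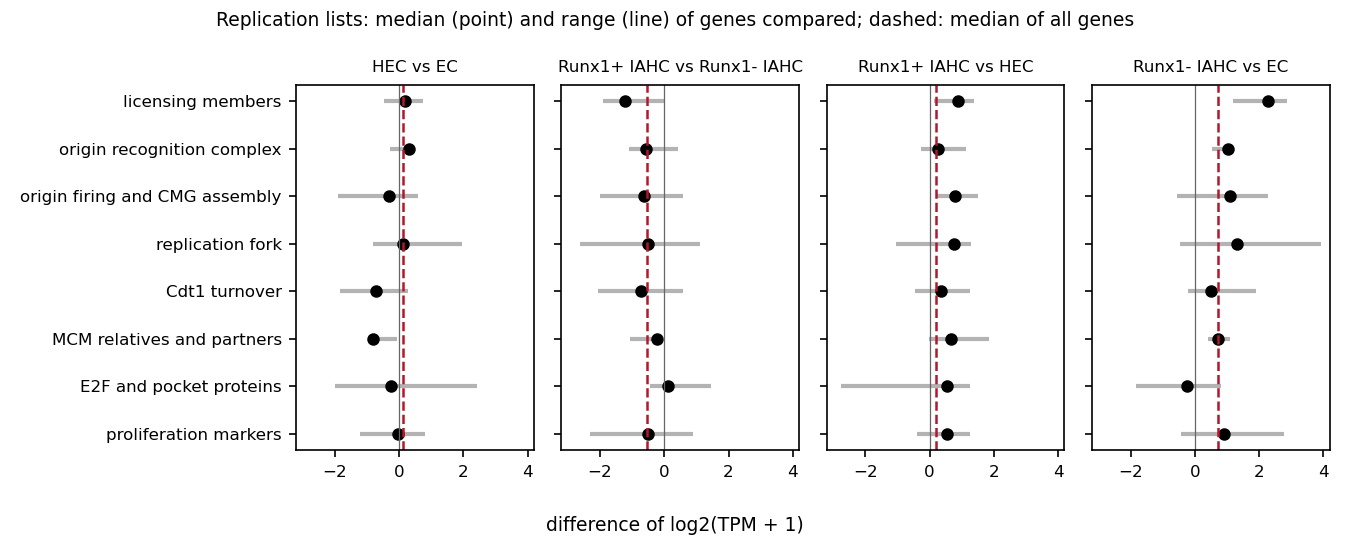
Medians (points) and ranges (grey lines) of the differences of log2(TPM + 1) for the licensing members and 7 other replication lists, 1 panel per comparison; the dashed line is the median of all genes compared. The licensing members were the farthest list from the dashed line in Runx1+ IAHC vs Runx1- IAHC (-1.22) and in Runx1- IAHC vs EC (2.29), beside a median of all genes of -0.53 and 0.71.

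Genes with a pattern like that of the ring were found by the distance between profiles of log2(TPM + 1), centred over the 4 libraries, and the mean profile of the 5 subunits. Among 9761 genes that reached 10 TPM in some library, the 5 closest outside the lists were Thumpd1 (distance 0.0936), Rcl1 (0.105), BC055324 (0.114), Drg2 (0.134) and Rnps1 (0.145). Thumpd1, for example, was at 27.3 TPM in ECs, 33.8 TPM in HECs, 56.8 TPM in Runx1+ IAHCs and 135 TPM in Runx1- IAHCs. Of the members, Mcm5 ranked 3 in this order (0.101), Mcm7 59, Mcm10 70, Mcm3 133, Mcm6 160, Mcm2 208 and Cdc6 416, whereas Cdt1 (1548) and Gmnn (1616) were far from it. The subunits are part of the mean they were set against, and a profile over 4 libraries is shared by many genes.

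**Figure D5:**
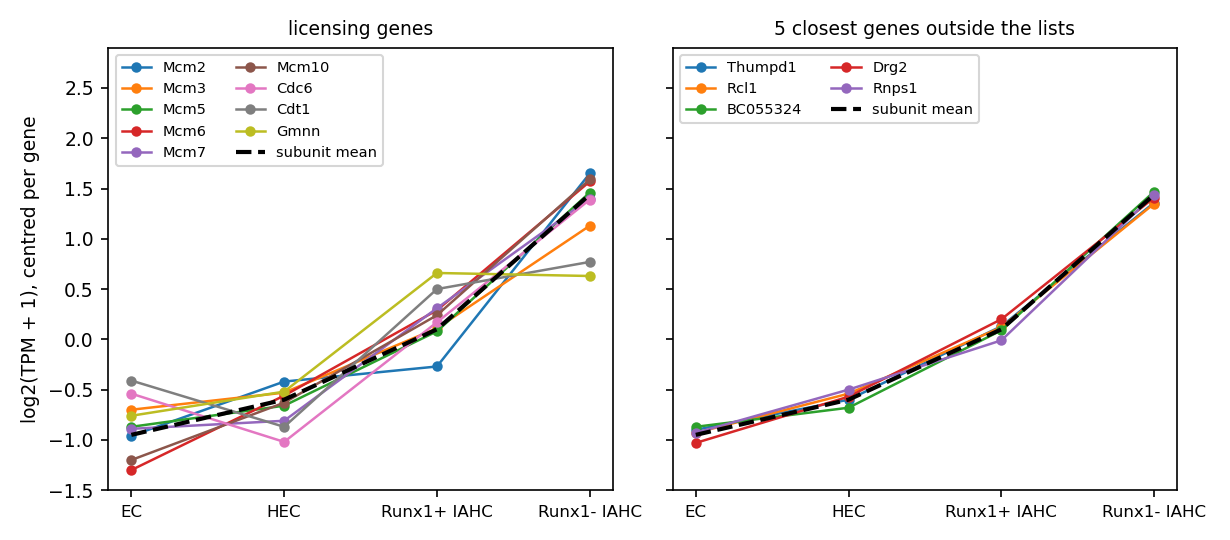
Profiles of log2(TPM + 1) centred per gene over the 4 libraries, for the 9 licensing genes (left) and the 5 closest genes outside the lists (right), with the mean of the 5 ring subunits dashed; lines only join the points of a gene. Most members stayed near the dashed profile, and Gmnn and Cdt1 left it, at 0.63 and 0.77 in Runx1- IAHCs where the mean of the subunits was at 1.44.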

How the data were processed

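RNA-seq was analysed in 4 libraries of sorted E11 AGM cells, 1 per population. Per the study's methods, a template-switching kit turned a fraction of each lysate into full-length cDNA, which was tagged with a transposase and sequenced as short single reads without strand information. The aligner was HISAT2 2.0.4 on GRCm38 (both named in the submitters' processing notes), and reads were counted per gene in union mode, which drops reads on more than 1 gene. The authors deposited TPM values on a linear scale for 51205 genes. Tables with 9 columns of per-sample values that match no sample here, and columns of the authors' own comparisons (fold changes and p-values), were not used.

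No value was 0. Multiplied by exonic length (GENCODE, same build), values were whole multiples of a step within 0.01 reads for 49371 genes (96.4%) in all 4 libraries, all 9 members included, as 1 read added to each gene would give. These reads, less the added 1, gave exact 95% intervals (Poisson for levels, Clopper-Pearson for ratios) and a floor of 3 reads. Reads carried no molecular identifiers and PCR copies count as reads, so these intervals and the floor describe counting error alone.

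Differences of log2(TPM + 1) were taken where the higher library reached 10 TPM and called at 2-fold. The pseudocount understates differences of low genes. No test across samples was possible with 1 library per population. The calculation was tested on simulated data. Alternatives were pseudocounts of 0.1 and 5 TPM, no minimum and a minimum of 50 TPM, scaling by median ratios or without mitochondrial, ribosomal protein and hemoglobin genes, and 4-fold and 1.5-fold rules. Named were all members, the 3 genes highest by mean TPM of each list, list genes called against their list's direction, the 5 genes nearest to the mean ring profile (Gm and Rik symbols left out) and genes that start within 1000 bases of a member on the opposite strand. Orc1, Ccnb1, E2f1, Klf1, Cops6, Mir25, Mir93, Dppa3, Dppa5a, Utf1 and Ptprc were named after their values were seen. Members and lists were chosen with earlier results of these data known. Promoter sequences are from RefSeq, build GRCm38.p6. Python 3.11.15, numpy 2.4.6, pandas 2.3.3, scipy 1.17.1 and matplotlib 3.10.9 were used.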

Additional observations from a re-analysis of the deposited data

Results flagged for a closer look

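For 5 of the 9 licensing genes, the contrast between cells with and without the Runx1 reporter went one way among ckit- cells and the opposite way among ckit+ cells, each beyond counting error. With 1 library per population, the difference between these contrasts was not tested. Of 9014 genes that reached 10 TPM in some library and whose reads came out whole, 25.1% were likewise higher with the reporter among ckit- cells and lower among ckit+ cells, and 13.9% the reverse. In alternatives chosen after seeing the data, 3 members (Mcm2, Mcm6 and Mcm10) remained opposite without mitochondrial, ribosomal protein and hemoglobin genes in the scaling, where 20.9% of genes did so in that direction, and 6 under scaling by median ratios (22.4%). Mcm2 was at 1.48 (1.39 to 1.57) of its level in HECs over ECs and at 0.261 (0.251 to 0.272) in Runx1+ over Runx1- IAHCs. Mcm6 was at 1.68 (1.59 to 1.77) and 0.412 (0.4 to 0.423), and Mcm10 at 1.60 (1.38 to 1.87) and 0.376 (0.349 to 0.406). Mcm5 was at 1.16 (1.10 to 1.23) and 0.382 (0.370 to 0.395), and Mcm3 at 1.13 (1.07 to 1.19) and 0.490 (0.473 to 0.508). All are ring subunits or the activator, but the ring subunit Mcm7 was not among them in TPM (HEC over EC 0.982 to 1.14). The loaders Cdc6 and Cdt1 were lower with the reporter in both contrasts in TPM. Under scaling by median ratios the Cdt1 interval among ckit+ cells was 0.998 to 1.13.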

How the results depend on the processing

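The direction of every called member difference held under each alternative run. Scaling by median ratios put the members' medians at 0.33 (HECs against ECs), -0.87 (Runx1+ against Runx1- IAHCs) and 1.88 (Runx1- IAHCs against ECs), left 2 calls in Runx1+ against Runx1- IAHCs and 2 in Runx1+ IAHCs against HECs, and put 2 of 32 list medians at 2-fold or more in place of 5. Of all genes under this scaling, 2321 of 8233 were called lower in Runx1+ against Runx1- IAHCs. In Runx1+ IAHCs against HECs 660 of 7572 were called higher. Without mitochondrial, ribosomal protein and hemoglobin genes the medians were 0.03 (HECs against ECs) and 2.09 (Runx1- IAHCs against ECs), with 5 calls in place of 7 in Runx1+ against Runx1- IAHCs and 8 in place of 9 in Runx1- IAHCs against ECs. Of all genes, 3362 of 9244 were then called lower in Runx1+ against Runx1- IAHCs and 3599 of 9708 higher in Runx1- IAHCs against ECs. A pseudocount of 5 TPM gave medians of -1.09 (Runx1+ against Runx1- IAHCs) and 2.09 (Runx1- IAHCs against ECs) and 3 list medians at 2-fold, with 6 calls in Runx1+ against Runx1- IAHCs and 3 in Runx1+ IAHCs against HECs, and a minimum of 50 TPM a median of 2.11 (Runx1- IAHCs against ECs). With that pseudocount, 2856 of 8726 genes were called lower in Runx1+ against Runx1- IAHCs and 656 of 7279 higher in Runx1+ IAHCs against HECs. A 4-fold rule left 0 calls in Runx1+ against Runx1- IAHCs, 0 in Runx1+ IAHCs against HECs and 5 in Runx1- IAHCs against ECs, since fewer differences reach it. A 1.5-fold rule gave 1 call in HECs against ECs and 8 in Runx1+ IAHCs against HECs. The share of all genes was not computed under the 4-fold and 1.5-fold rules, so these counts cannot be set against it. Of 201 member values under an alternative, 133 moved by less than their counting interval, 68 by more, and 3 uncalled ones changed sign (Mcm7 in HECs against ECs, Cdt1 between the IAHCs and Mcm2 in Runx1+ IAHCs against HECs). The 133 include all values under another minimum, which cannot move a member's value, so the tally does not measure stability. Under scaling by median ratios nearly all member values moved by more than their counting interval. No paired analysis was possible because each population had 1 library, and for the same reason no library could be left out. Depth limits Mcm10 and Cdc6 most, on 258 and 489 reads in their lowest libraries. The spread between embryos and sorts is unknown.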
